A study of Oryza sativa with 14 samples.

Results

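GolS1, GolS2 and MBF1c are 3 rice genes tied to heat and osmotic stress, described here across wild-type and htg3 leaves with and without heat. They were chosen by locus ID, LOC_Os03g20120 for GolS1, LOC_Os07g48830 for GolS2 and LOC_Os06g39240 for MBF1c, which place them on chromosomes 3, 7 and 6. They are 3 of the 55986 rows of the count table, and all 3 are among the 28823 genes with enough counts to be tested. The gene names belong to these IDs in the description of the set and were not found in the name table used for other genes.

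Galactinol synthase joins galactose from UDP-galactose to myo-inositol and so makes galactinol, the galactose donor from which raffinose synthase builds raffinose. In Arabidopsis, a galactinol synthase gene is switched on by heat through heat shock factors, and raffinose-family sugars act as compatible solutes and protect cells under drought, cold and heat. MBF1c is a small coactivator that bridges transcription factors and the basal machinery. In Arabidopsis it is induced by heat, is needed for survival of heat, and has been linked to trehalose and ethylene signalling.

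The series searched for genes downstream of HTG3 in rice (Oryza sativa, cultivar Zhonghua 11), from leaves of seedlings at the 4-leaf stage. Wild-type plants (WT) and 2 transgenic htg3 lines, htg3_cr12 (cr12) and htg3_cr2 (cr2), were left untreated or kept at 42 °C for 0.5 h. This gave 6 groups: WT_control and WT_heat with 3 libraries each, and cr12_control, cr12_heat, cr2_control and cr2_heat with 2 libraries each. The labels call the lines htg3 mutants. The locus of HTG3, the nature of the change in each line and the number of plants per library are not given in the sources used here, so the targeted gene was not checked. Nothing in the labels says that the replicates of a group come from separate plants, so the p-values measure the spread between these libraries, which may be technical.

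The 14 libraries held 92 M to 99.4 M counts (M, mega), and 1 sequenced fragment is worth about 4 counts in this table. Levels are in CPM, counts per mega-count of a library after TMM scaling. The 4 leaf markers (RCA, RbcS and 2 light-harvesting genes) summed to 31882 to 59382 CPM in untreated libraries and to 11830 to 24028 CPM after heat. They did not fall alike. In WT, RCA went from a mean of 15967 to 1650 CPM and RbcS from 8756 to 3723 CPM. The 2 light-harvesting genes changed less, from 7820.5 to 6261.5 CPM and from 7256 to 7484 CPM. The 4 root markers with matched names (Lsi1, Lsi2, NAR2.1 and HKT2;1) summed to 5.92 to 13.8 CPM untreated and to 15.4 to 29.1 CPM after heat, with Lsi2 at 0 in every library. The rise was that of Lsi1, from a mean of 5.48 to 20.1 CPM in WT. There NAR2.1 went from 0.234 to 0.0575 CPM and HKT2;1 from 1.88 to 1.31 CPM. RCc3, whose symbol was not found in the name table, was left out of the sum. The part of these shifts in the heat responses below was not tested. In bulk RNA, fewer cells of a type and less RNA per cell cannot be told apart.

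Heat raised GolS1 and MBF1c in WT and in both htg3 lines, and MBF1c by far the more of the pair. GolS2 was not called in WT or cr12 and was called higher in cr2, although the difference between the genotypes did not pass a test of its own. Heat changed a large share of all genes: at an adjusted p under 0.05 by edgeR's quasi-likelihood test, 51.1% of tested genes were called in WT, with 24.8% of all tested genes higher, and 56.1% were called in the 2 htg3 lines combined, 27.6% as higher. In each of these comparisons 2 of the 3 genes were called, both higher, and with so high a background the calls by themselves say little about these genes. The sizes of the changes stand out more than the calls: GolS1 ranked 835 from the top of 28823 genes by log2 change in WT, and MBF1c ranked 82.

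GolS1 stood at 58.8, 48.3 and 48.3 CPM in the 3 untreated WT libraries and at 488, 754 and 649 CPM in the 3 heat-treated ones. Untreated cr12 had 63.8 and 54.7 CPM and heat-treated cr12 had 423 and 433 CPM. Untreated cr2 had 64.1 and 55.0 CPM and heat-treated cr2 had 378 and 394 CPM. Every heat-treated library lay far above every untreated one, and the 3 heat-treated WT libraries were the highest of all. The gene was well covered, with 4790 to 64207 counts per library, or about 1198 to 16052 fragments.

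The heat response of GolS1 in WT was 12.2-fold, from 51.8 ± 6.09 to 630 ± 134 CPM (SD, n = 3 each). On the log2 scale this was 3.60 ± 0.16 (SE), with a 95% interval of 3.25 to 3.96 and an adjusted p of 7.07e-09. In the htg3 lines the response was 6.85-fold, a log2 change of 2.78 ± 0.14 (adjusted p = 8.15e-09). Each line rose on its own, cr12 by 2.85 ± 0.19 (adjusted p = 3.24e-07) and cr2 by 2.70 ± 0.19 (adjusted p = 5.55e-07), where 46.1% and 41.4% of all tested genes were called, 22.2% and 20.5% as higher.

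MBF1c was low without heat. It stood at 4.50, 3.94 and 4.25 CPM in untreated WT, at 2.43 and 7.0 CPM in untreated cr12 and at 3.05 and 2.68 CPM in untreated cr2. After heat it reached 1127, 1548 and 1331 CPM in WT and 1677 and 2077 CPM in cr12. In heat-treated cr2 it stood at 874 CPM in replicate 1 and at 37.4 CPM in replicate 2. All 7 heat-treated libraries lay above all untreated ones, but cr2_heat replicate 2 lay far below the other 6. Counts ran from 241 to 185457 per library, so the lowest library still held about 60 fragments.

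The WT response of MBF1c was 316-fold, from 4.23 ± 0.277 to 1335 ± 211 CPM (n = 3 each), a log2 change of 8.30 ± 0.98 with an interval of 6.15 to 10.45 and an adjusted p of 2.03e-05. The htg3 response was 251-fold, or 7.97 ± 0.84 on the log2 scale (adjusted p = 5.8e-06). By line it was 8.64 ± 1.22 in cr12 (adjusted p = 0.000109) and 7.31 ± 1.16 in cr2 (adjusted p = 0.000318). These errors are wide because all groups share 1 estimate of the spread, and the 2 heat-treated cr2 libraries differ so much. Without cr2_heat replicate 2 the WT response was 8.33 ± 0.39, with an interval of 7.48 to 9.18, and the htg3 response was 8.45 ± 0.34. Without cr2_heat replicate 1 the htg3 response was 6.18 (adjusted p = 5.51e-08). The cr2 response was 8.22 without replicate 2 and 3.68 without replicate 1, both called. The cr12 response was 8.11 without cr12_control replicate 1 and 9.63 without cr12_control replicate 2, both called too.

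**Figure D1:**
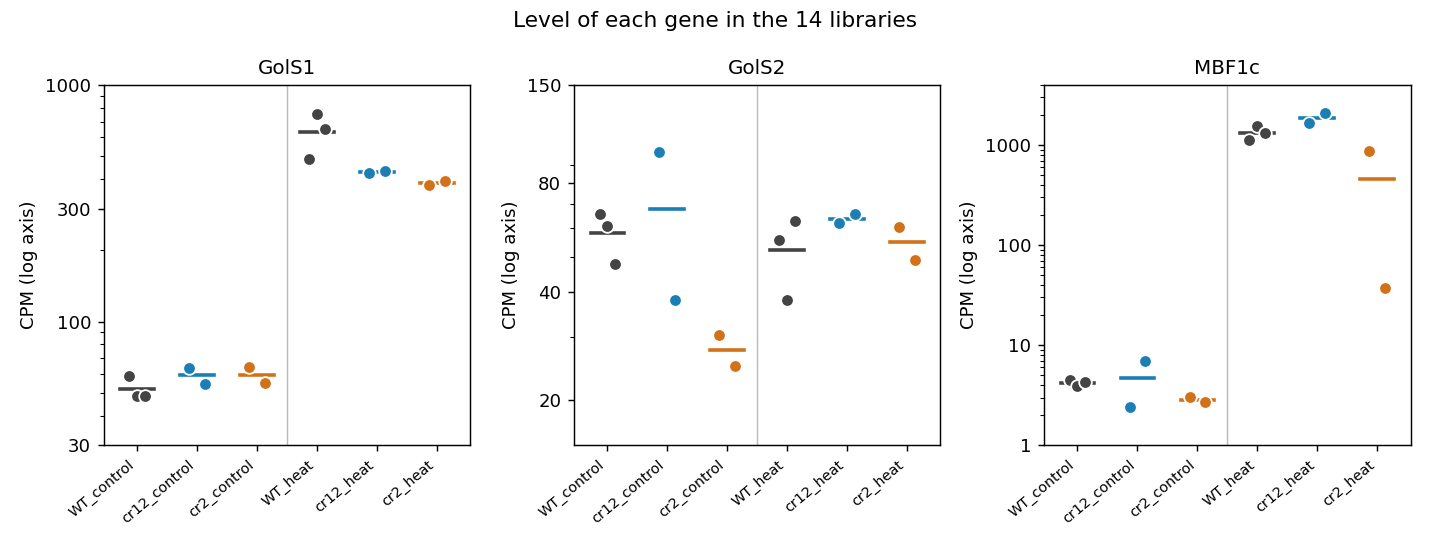
Level of GolS1, GolS2 and MBF1c in CPM on log axes, with 1 point per library and a bar at the mean of each of the 6 groups; untreated groups are left of the grey line and heat-treated groups right of it. GolS1 and MBF1c part the treatments completely, GolS2 does not, and the lowest heat-treated MBF1c point (37.4 CPM) is cr2_heat replicate 2.

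GolS2 did not follow its paralogue. It stood at 65.6, 60.9 and 47.7 CPM in untreated WT and at 55.5, 38.0 and 63.0 CPM in heat-treated WT. The treatments overlap, and the log2 change was -0.15 ± 0.28, with an interval of -0.78 to 0.47 (adjusted p = 0.686). That interval spans both directions and lies wholly below that of GolS1.

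In the htg3 lines the GolS2 levels were spread more widely before heat than after it. Untreated cr12 had 97.7 and 38.0 CPM, the widest gap within a group for this gene, and untreated cr2 had 30.3 and 24.9 CPM, the lowest of all 14 libraries. After heat, cr12 had 62.0 and 65.7 CPM and cr2 had 60.7 and 49.0 CPM, inside or just above the WT range. GolS2 held 2317 to 9693 counts per library, about 579 to 2423 fragments, so counting error is small against these gaps.

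In cr2 the 2 heat-treated libraries lay above both untreated ones, and GolS2 was called higher, by 0.99 ± 0.35 on the log2 scale with an interval of 0.22 to 1.76 (adjusted p = 0.041). That call was lost in 5 of 12 alternatives, 4 of which leave out 1 of the 4 cr2 libraries, with adjusted p from 0.00636 to 0.201. In cr12 the change was -0.09 ± 0.35 (adjusted p = 0.867). Without cr12_control replicate 1, the library with 97.7 CPM, it became 0.80, and without cr12_control replicate 2 it became -0.57. Over both lines the change was 0.45 ± 0.25 with an interval of -0.09 to 0.99 (adjusted p = 0.143). It was 0.90 without replicate 1 and 0.22 without replicate 2 of untreated cr12.

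Whether cr2 responded more than WT in GolS2 was tested directly: the difference of the log2 responses was 1.14 ± 0.45 (adjusted p = 0.406 by edgeR). The difference between cr12 and cr2 in this response was -1.08 ± 0.50 (adjusted p = 0.437). Neither passed, in comparisons where 0.0104% and 0.00347% of all tested genes were called.

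**Figure D2:**
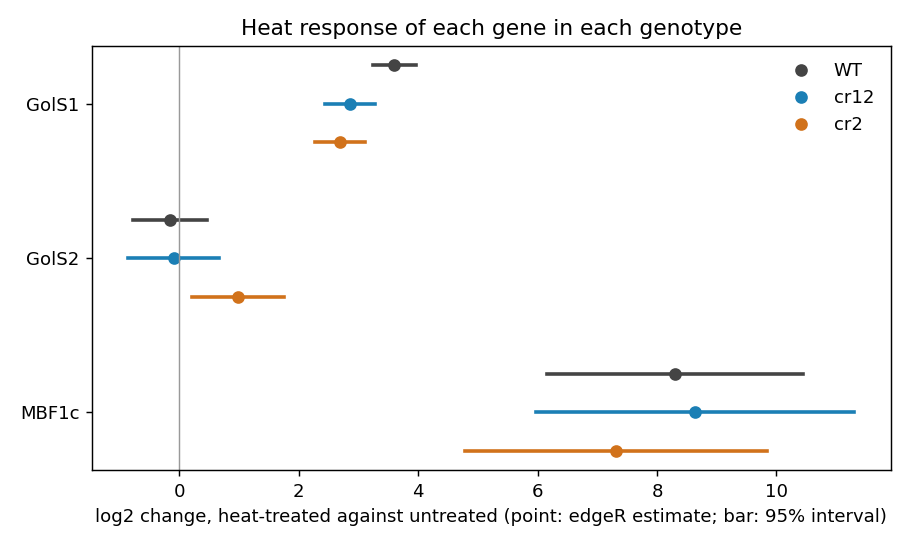
Log2 change of heat-treated against untreated leaves for GolS1, GolS2 and MBF1c in WT, cr12 and cr2, with points at the edgeR estimate and bars for the 95% interval. GolS1 lies between 2.70 and 3.60, MBF1c between 7.31 and 8.64 with wide bars, and the GolS2 bars of WT and cr12 cross 0.

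The ratio of GolS1 to GolS2 counts within a library shows the split of the paralogues without any scaling between libraries. Gene length was not corrected for, so only its change across libraries can be read. It was 0.897, 0.794 and 1.01 in untreated WT and 8.78, 19.9 and 10.3 after heat. In cr12 it went from 0.653 and 1.44 to 6.83 and 6.60. In cr2 it went from 2.11 and 2.20 to 6.23 and 8.05. Heat-treated WT had the 3 highest ratios, and the untreated cr2 libraries, where GolS2 was lowest, had the highest ratios without heat.

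Before heat, none of the 3 genes was called between the htg3 lines and WT, where 3.07% of all tested genes were called, and none had an unadjusted p under 0.05 by edgeR. GolS1 differed by 0.20 ± 0.14 on the log2 scale with an interval of -0.10 to 0.50 (adjusted p = 0.53), its htg3 libraries spanning 54.7 to 64.1 CPM against 48.3 to 58.8 CPM in WT. MBF1c differed by -0.20 ± 0.70, with an interval of -1.72 to 1.32 (adjusted p = 0.938). GolS2 differed by -0.42 ± 0.27, with an interval of -1.0 to 0.16 (adjusted p = 0.467). DESeq2 and limma voom called none of the 3 either.

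By line, the untreated GolS2 values were as follows. In untreated cr2 it was 27.6 ± 3.8 CPM against 58.1 ± 9.3 CPM in WT, a log2 difference of -1.07 ± 0.33 (adjusted p = 0.0837, with 5.49% of genes called). In untreated cr12 it was 67.9 ± 42.2 CPM, a difference of 0.22 ± 0.32 (adjusted p = 0.803, with 1.5% of genes called). The lines differed from each other by 1.3 ± 0.35 (adjusted p = 0.064, with 3.8% of genes called), which did not pass. The value 97.7 CPM of cr12_control replicate 1 lies 0.57 log2 units above the highest other untreated library, which ranks 526 of 28823 genes by that gap. Without it the lines differed by 0.44, cr2 minus WT was -1.06, and the mean of both lines minus WT was -0.84. Without cr12_control replicate 2 instead, the values in the same order were 1.81, -1.06 and -0.15. Which untreated cr12 library is kept thus decides the line difference and the mean of both lines, but not cr2 minus WT.

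After heat, GolS1 was lower in the htg3 lines than in WT. It was the 1 gene of the 3 called, where 7.21% of all tested genes were called and 3.74% were lower. The 4 htg3 libraries stood at 378 to 433 CPM and the 3 WT libraries at 488 to 754 CPM, so the groups did not overlap. The log2 difference was -0.63 ± 0.14 with an interval of -0.93 to -0.33, which is 1.55-fold lower (adjusted p = 0.0211). The log2 difference from WT was -0.71 ± 0.17 in cr2 (adjusted p = 0.0277, with 7.81% of genes called and 3.66% lower) and -0.56 ± 0.17 in cr12 (adjusted p = 0.0732, with 5.53% of genes called). The cr2 call was lost without WT_heat replicate 2 (adjusted p = 0.06), without cr2_heat replicate 1 (adjusted p = 0.104), without cr2_heat replicate 2 (adjusted p = 0.165) and with the compared groups alone (adjusted p = 0.0984). Both lines share the WT libraries, and the difference between them was 0.15 ± 0.18 with an interval of -0.24 to 0.54 (adjusted p = 0.747).

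The GolS1 call is near the threshold. The estimate stayed between -0.81 and -0.49 in 14 alternatives, with adjusted p from 0.000236 to 0.0657. It passed in 11 of them and missed when the fit held the heat-treated groups alone (-0.63, adjusted p = 0.0657), without WT_heat replicate 2 (-0.49, adjusted p = 0.0634) and without cr2_heat replicate 2 (-0.67, adjusted p = 0.0582).

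The difference between the heat responses of GolS1, htg3 minus WT, was -0.83 ± 0.19 with an interval of -1.25 to -0.40. Its p was 0.00115 and its adjusted p 0.0964 by edgeR, in a comparison where 0.114% of all genes, 33 in number, were called. By line it was -0.75 ± 0.23 in cr12 (adjusted p = 0.147, with 0.534% of genes called) and -0.91 ± 0.23 in cr2 (adjusted p = 0.204). DESeq2 called the value for both lines (-0.86, adjusted p = 0.0027), and the other alternatives did not, up to an adjusted p of 0.213. GolS1 was therefore lower in heat-treated htg3 leaves, while a smaller heat response did not pass over all genes with edgeR.

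GolS2 and MBF1c showed no called genotype difference after heat. GolS2 differed by 0.18 ± 0.27 with an interval of -0.40 to 0.76 (adjusted p = 0.753), and its response by 0.60 ± 0.38 (adjusted p = 0.525). MBF1c differed by -0.53 ± 0.66, with an interval of -1.97 to 0.91 (adjusted p = 0.699), and its response by -0.33 ± 0.97 (adjusted p = 0.953). The MBF1c interval is wide, and it does not show that the genotypes act alike.

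The MBF1c value rests on the 2 libraries of heat-treated cr2. With both, htg3 minus WT was -0.53. Without cr2_heat replicate 2 it was -0.08 ± 0.29, with an interval of -0.72 to 0.55 (adjusted p = 0.946). Without cr2_heat replicate 1 it was -2.36 (adjusted p = 0.00455), which is past the threshold. For cr2 alone the difference from WT moved from -1.55 ± 0.84 (adjusted p = 0.286) to -0.65 without replicate 2 and to -5.19 (adjusted p = 0.00203) without replicate 1. The difference between cr12 and cr2 after heat, 2.04 ± 0.91 (adjusted p = 0.246, with 5.62% of genes called), moved to 1.13 (adjusted p = 0.289) and 5.67 (adjusted p = 0.00247) in the same order.

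**Figure D3:**
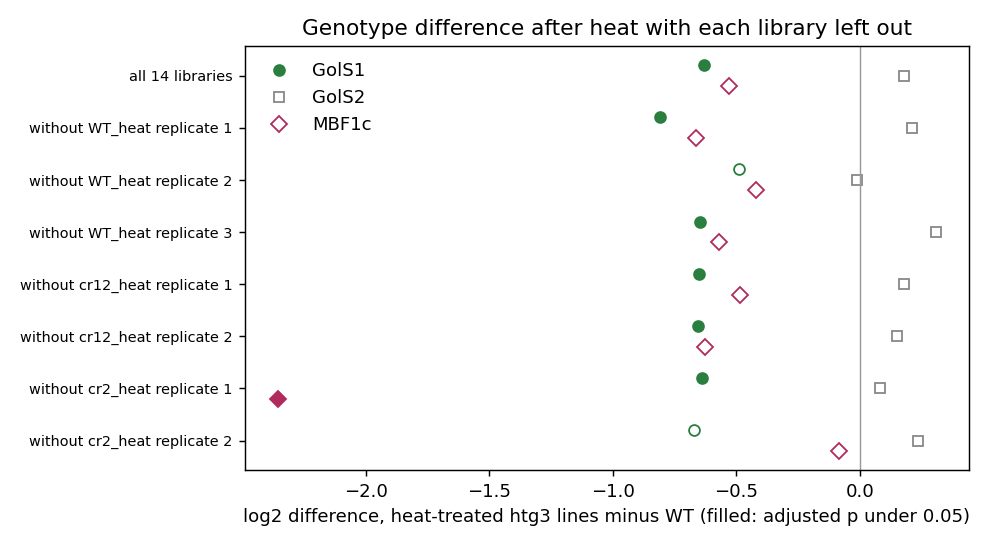
Log2 difference between heat-treated htg3 lines and heat-treated WT for GolS1, GolS2 and MBF1c, with all 14 libraries and with each heat-treated library left out; filled points have an adjusted p under 0.05. GolS1 stays between -0.81 and -0.49, whereas MBF1c moves from -2.36 to -0.08 according to which cr2_heat library is left out.

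The low MBF1c library was followed through the table. In cr2_heat, replicate 1 held 80780 counts of MBF1c and replicate 2 held 3516, a 23.4-fold gap in CPM. Replicate 2 lay 4.55 log2 units below the lowest other heat-treated library, and only 6 of the 28823 tested genes lay further below in that library. Its GolS1 level, 394 CPM, was close to the 378 CPM of replicate 1, and HSFA2a, a heat-induced heat shock factor, stood at 1190 and 1221 CPM in replicates 1 and 2.

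Other heat-induced genes moved in both directions between the 2 libraries. Of 524 genes that rose at least 16-fold in WT, 16 were at least 4-fold lower in replicate 2 than in replicate 1 and 13 at least 4-fold higher, with a median log2 difference of 0.15. Over all tested genes, 53 were at least 16-fold lower and 62 at least 16-fold higher in replicate 2, and the corresponding numbers for the 2 libraries of cr12_heat were 66 and 58. The nearest rows with counts on either side of MBF1c, taken by locus number, were LOC_Os06g39230, with 2142 and 2411 counts in replicates 1 and 2, and LOC_Os06g39260, with 43910 and 39357. The second of these also rose with heat, from 18.1, 13.7 and 15.6 CPM to 347, 364 and 376 CPM in WT. What lowered MBF1c in this 1 library was not tested.

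Among untreated libraries the highest MBF1c level was the 7.0 CPM of cr12_control replicate 2, against 2.43 to 4.50 CPM in the other 6. GolS1 was not raised there, at 54.7 CPM. The heat shock factor genes HSFA2a (6.69 CPM against 0 to 1.25 in the other 6), HSFB2b (2.74 against 0.605 to 1.72) and HSFA2c (21.1 against 11.1 to 17.9) were also highest there. HSFA2d was lowest there, at 32.0 CPM, and the other listed heat shock factors lay within the range of the other 6.

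The genes that supply and use galactinol were described from lists of 14 sugar genes whose names and chromosomes matched the name table. With heat in WT, 7 of the 14 rose, 2 fell and 5 were not called, with a median log2 change of 0.74 against -0.05 over all tested genes, of which 51.1% were called and 24.8% were higher. Among the 7 is TPP3, called on very few counts, as given below. In the htg3 lines 5 rose, 3 fell and 6 were not called, with a median of 0.54 and 56.1% of all tested genes called, so the share of sugar genes called there is near the background. Members of the route into raffinose that rose include the raffinose synthase gene RFS and UGE1, which encodes a UDP-glucose epimerase that makes UDP-galactose.

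RFS stood at 118, 93.8 and 85.1 CPM in untreated WT and at 396, 643 and 440 CPM after heat, without overlap. Its log2 change was 2.31 ± 0.18 in WT and 1.69 ± 0.15 in the htg3 lines. UGE1 stood at 71.1, 57.8 and 55.9 CPM untreated and at 192, 301 and 262 CPM after heat in WT, a log2 change of 2.03 ± 0.17, and at 1.18 ± 0.15 in the htg3 lines. The epimerase gene UGE2 fell in both, with log2 changes of -0.51 ± 0.10 and -0.65 ± 0.08, and UGE3 and UGE4 were not called. SUS1, a sucrose synthase gene, rose by 0.91 ± 0.22 in WT and 1.21 ± 0.19 in htg3, and SUS2, SUS3 and SUS4 were not called.

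Of the 4 trehalose phosphatase genes, which make trehalose from its phosphate, TPP1 rose by 1.91 ± 0.20 in WT and 1.41 ± 0.17 in htg3, and TPP2 by 1.71 ± 0.18 and 0.84 ± 0.16. TPP7 fell, from 48.6 ± 2.05 to 14.3 ± 3.16 CPM in WT (log2 change -1.77 ± 0.15), and fell in htg3 too (-1.62 ± 0.13). TPP3, which had no counts in untreated WT, held 9, 25 and 0 counts in the 3 heat-treated WT libraries. It was called (adjusted p = 0.05 to 2 decimals, just under the threshold) on counts too few for a fold to be given.

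INO1, whose product makes the inositol phosphate from which myo-inositol comes, rose in WT and fell over the 2 htg3 lines combined. It stood at 292, 282 and 237 CPM in untreated WT and at 417, 571 and 480 CPM after heat, a rise of 0.86 ± 0.13 (adjusted p = 0.000143). In cr12 it went from 396 and 348 CPM to 268 and 226 CPM, and in cr2 from 325 and 296 CPM to 271 and 259 CPM. In both lines every heat-treated library lay below every untreated one, and the htg3 change was -0.41 ± 0.11 (adjusted p = 0.00742). Singly, cr12 was called (-0.59 ± 0.16, adjusted p = 0.00857) and cr2 was not (-0.23 ± 0.16, adjusted p = 0.273).

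After heat INO1 was lower in the htg3 lines than in WT, with a log2 difference of -0.93 ± 0.12 (adjusted p = 0.00239), the 1 gene of the 14 called in that comparison, a share near the 7.21% of all genes called. The responses differed by -1.27 ± 0.17 (adjusted p = 0.0295), again the 1 gene of 14, where 0.114% of all genes were called. By line the response difference from WT was -1.45 ± 0.20 in cr12 (adjusted p = 0.0316) and -1.09 ± 0.20 in cr2 (adjusted p = 0.106). The call for both lines was lost in 9 of 21 alternatives, 8 of which leave out a single library, with values from -1.39 to -1.15 and adjusted p from 5.44e-09 to 0.0818. For RFS and UGE1 the htg3 minus WT difference after heat was -0.58 ± 0.16 (adjusted p = 0.0509) and -0.54 ± 0.16 (adjusted p = 0.0571). Neither passed in the main fit, but both are near the threshold. RFS passed in 7 of 14 alternatives, with values from -0.74 to -0.35. UGE1 passed in 4 of 14, with values from -0.73 to -0.40. Before heat 0 of the 14 were called between htg3 and WT by edgeR, 3 had an unadjusted p under 0.05, and DESeq2 called 2 of all 27 listed genes.

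**Figure D4:**
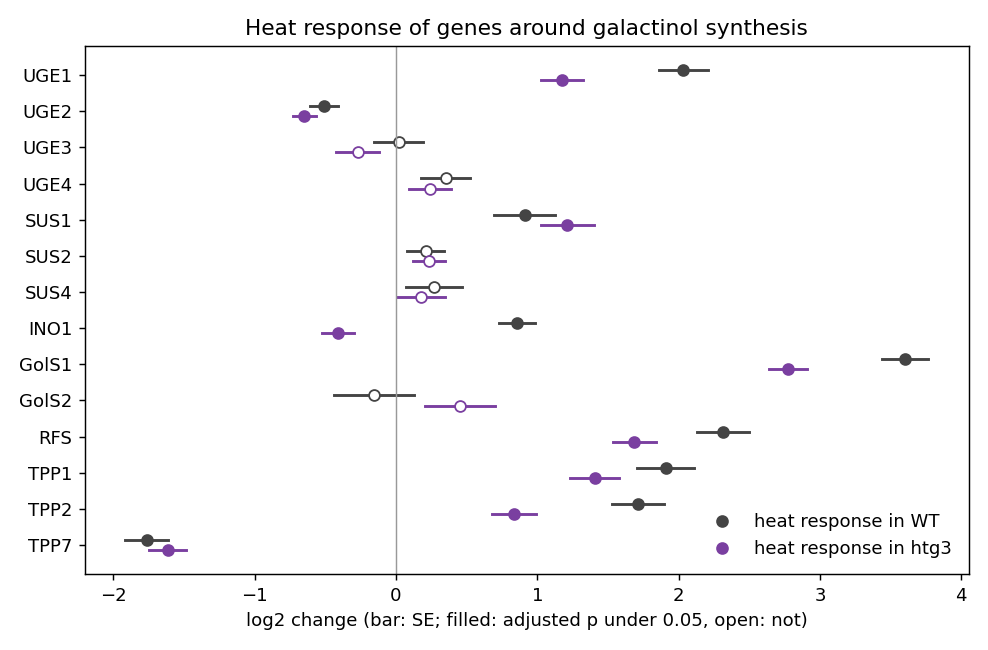
Log2 change with heat in WT and in the htg3 lines for GolS1, GolS2 and 12 of the 14 sugar genes, with bars of 1 SE and filled points for an adjusted p under 0.05; SUS3 and TPP3, with almost no counts, are not drawn. INO1 lies on opposite sides of 0 in the 2 genotypes, at 0.86 and -0.41, while RFS, UGE1, TPP1, TPP2 and GolS1 rise in both.

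Of 13 regulators listed with MBF1c, heat shock factors and DREB factors, 11 rose with heat and 2 fell in WT, and the same numbers hold in the htg3 lines, where 51.1% and 56.1% of all tested genes were called. HSFA2c rose by 6.32 ± 0.16 and HSFB2b by 6.87 ± 0.44 in WT. HSFA1 and DREB1A fell, with log2 changes of -0.75 ± 0.07 and -3.73 ± 0.58. Between htg3 and WT after heat, DREB2B alone of the 13 was called, at -0.50 ± 0.14 (adjusted p = 0.0484), a share near the 7.21% of all genes and a call lost in 8 of 14 alternatives with adjusted p up to 0.135. This value averages lines that differ. In cr2 against WT after heat, 4 of the 13 were lower and 0 higher, where 3.66% of all genes were lower. In cr12, 0 were lower and 1 was higher, where 5.53% of all genes were called.

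The heat-treated lines were also compared over the regulators. With all libraries, 5 of the 13 regulators were higher in cr12 than in cr2, among them HSFA2c by 0.71 ± 0.16 (adjusted p = 0.0233) and HSFB2a by 1.10 ± 0.22 (adjusted p = 0.0141), and none was lower, with 5.62% of all genes called. Without cr12_heat replicate 2, cr2_heat replicate 1 or cr2_heat replicate 2, 0 of all 27 listed genes were called by edgeR, and DESeq2 called 7 with every library. The 2 libraries of cr2_heat were alike in HSFA2c, at 946 and 935 CPM, against 1458 and 1621 CPM in cr12 and 1218 to 1460 CPM in WT. None of the 14 sugar genes was called between the heat-treated lines by edgeR, and 4 of them had an unadjusted p under 0.05.

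Tested genes with the profile most like each of the 3 were picked by Pearson's r of log2 CPM over the 14 libraries. For GolS1 and MBF1c this r mostly reflects the contrast of 2 treatments, which overlap for GolS2. For GolS1 the nearest was LOC_Os12g32950, with r = 0.996 over all libraries, 0.80 within the 7 untreated and 0.87 within the 7 heat-treated ones. For MBF1c the nearest was LOC_Os01g08400, with r = 0.987, and -0.28 and 0.94 within treatments. Its rise with heat in WT was small beside that of MBF1c, from a mean of 22.6 to 34.6 CPM (log2 change 0.61). LOC_Os05g03430, LOC_Os12g43930 and LOC_Os03g31230, also among the 5 nearest, changed by 0.70, 0.97 and 0.66. LOC_Os03g50960, the fourth nearest to MBF1c (r = 0.981), rose by 6.18 with heat in WT on the log2 scale. It stood at 84.1 and 7.22 CPM in cr2_heat replicates 1 and 2, and so was low where MBF1c was low. The correlation that picked it includes that library, so this likeness is no separate support for the MBF1c value. For GolS2 the nearest was LOC_Os06g46740, with r = 0.886, and 0.95 and 0.80 within treatments. These r share depth and treatment and are a description over 14 libraries.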

How the data were processed

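Per the labels' protocols, total RNA was extracted from leaves with Trizol and libraries followed Illumina's standard steps. The authors deposited 1 table of estimated counts per gene, in whole numbers, so rounding changed nothing. The tools listed in the submitters' processing notes are StringTie 1.3.3b, HISAT2 2.1.0, fastp 0.20.1 and DESeq2. Their roles, the genome build and the use of strand in counting are not given in the sources used here. Reads of overlapping or antisense genes therefore cannot be told apart. The value 4 occurs 9196 times, more often than 3 (3918 times) and 5 (5346 times), and 1 fragment was taken as 4 counts.

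From the counts, edgeR 4.0.16 in R 4.3.3 was run with its quasi-likelihood F test, TMM scaling and filterByExpr over 6 groups, in 1 fit of 6 group means to all 14 libraries, with Benjamini-Hochberg adjustment over 28823 genes. These hold 99.99% of the counts. A gene was called at an adjusted p under 0.05. There were 16 comparisons, namely the heat responses, the genotype and line differences within each treatment, and the differences between heat responses. CPM are on TMM-scaled library sizes. The SE is the size of the log2 change over the root of the F statistic, and intervals are at 95%. The htg3 values weight both lines equally. DESeq2 1.42.0 and limma 3.58.1 (voom) were alternatives. The steps were run on simulated data in which a small set of genes changed, in heat-treated WT alone. Scaling under a heat response as wide as the one here was not tested that way. Fits with lone libraries assume that these vary like the other groups.

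The 3 genes, the gene lists, the tests and the alternatives were chosen with earlier results of these data known. The 3 genes are given in full. Listed genes are named when called, up to 4 per list by size, and when they go against their list, and 5 nearest genes per member were taken by correlation. HSFA2a in heat-treated cr2, uncalled list genes given by name and the genes beside MBF1c were chosen after their values were seen. The heat shock factors named for cr12_control replicate 2 were chosen in the same way. Names of listed genes were checked against the name table (assembly ASM3414082v1, 39387 genes), which carries none of these locus IDs. Of 49 listed genes, 36 had their symbol on the same chromosome as the ID, 2 had it elsewhere and 11 were not found. All 71 pairs on 1 chromosome stand in the order of their IDs. Of 39 pathway and regulator genes, 27 were found and used and 12 left out. Replicates were numbered in accession order, which pairs nothing.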

Additional observations from a re-analysis of the deposited data

Results flagged for a closer look

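The heat response of INO1, the gene for myo-inositol-3-phosphate synthase, differed between the htg3 lines and WT, with a log2 difference of -1.27 by edgeR's interaction test (adjusted p = 0.0295). INO1 rose in the 3 heat-treated WT libraries and was lower in all 4 heat-treated htg3 libraries than in the untreated libraries of the same line. The call was lost in 9 of 21 alternatives. For cr2 alone, neither its heat response nor the difference of that response from WT was called.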

How the results depend on the processing

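No paired analysis was possible because the labels give no replicate numbers. Of the values of the 3 genes under alternatives, 654 stayed on their side of the threshold, 12 lost a call and 17 gained one. Some of the 654 changed sign without a call in either fit, as the WT heat response of GolS2 did (-0.29 to 0.044). The 1 value that changed direction with a call was the cr12 heat response of GolS2. It ranged from -0.57 to 0.80 with 1 library left out. GolS1 between htg3 and WT after heat missed the threshold with only the groups compared (-0.63) and ranged from -0.81 to -0.49 with 1 library left out. The GolS1 response difference passed with DESeq2 (-0.86). With 1 library left out, the htg3 heat response of GolS2 ranged from 0.22 to 0.90, its untreated difference from -0.84 to -0.15, and the htg3 against WT difference of MBF1c after heat from -2.36 to -0.083. Of the 27 listed genes, 0 were called between untreated htg3 and WT, against 2 by DESeq2, 1 with library totals and 0 to 2 with 1 library left out. After heat 2 were called, against 9 by DESeq2, 4 by voom, 4 with RLE scaling, 4 with no filter, 1 with library totals, 1 with only the groups compared and 1 to 3 with 1 library left out. For the response difference 1 was called, against 3 by DESeq2, 0 without the 2 untreated htg3 libraries numbered 2, and 0 to 1 with 1 left out. The cause was not tested.

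Library totals in place of TMM shifted the median of all genes by -0.147 in the WT and -0.113 in the htg3 heat response. The share of calls that were higher went from 48.5% to 39% in WT heat, and from 48.1% to 61.8% for htg3 against WT after heat. For the response difference it was 60.6%, 25% with RLE and 70% with totals. The 33 genes called there became 12 with RLE scaling. With 2 libraries in a line's group, a single library could decide a line's value, as for MBF1c in cr2. Depth gives counting error only.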
